A study of Mus musculus with 12 samples.

Results

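The mitosis and G2/M genes are 48 genes whose products carry a cell from G2 through chromosome segregation to its division into daughter cells. They were chosen by gene symbol from a list. A gene counted as measured where the annotation of the array gave at least 1 probe set, a group of short oligonucleotides read as one signal, that single symbol. This held for 47 of the 48 genes, with 102 of the 28805 probe sets that carry 1 symbol, and the whole table covered 15858 genes. Ccnb1 was not analysed here. Sorted GFP-positive marrow cells, taken 4 weeks after transplantation, gave the RNA for 12 Affymetrix mouse arrays, 3 per group. In all groups the donor cells were C57BL6 bone marrow cells immortalised with HoxA9, whose homeobox protein holds myeloid progenitors in cycle, and the recipients were irradiated mice. IDH1mut cells carried the retroviral vector pSF91-IDH1mut-IRES-GFP with a mutant isocitrate dehydrogenase 1, whose amino acid change the labels do not name. R-2HG cells carried the empty vector, and their recipients received R-2-hydroxyglutarate, the metabolite that cancer-associated IDH1 mutants produce, at 1 mg per day for 4 weeks. IDH1wt cells carried pSF91-IDH1wt-IRES-EGFP, and empty vector cells carried the vector alone in untreated recipients. For R-2HG the description label reads IDH1mut, which conflicts with the title, source name, construct and series design that were followed. Whether the 3 arrays of a group represent separate mice is not stated, so p-values describe only the spread among these arrays, which could be technical.

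Entry into mitosis is driven by the kinase CDK1 bound to A- and B-type cyclins, after CDC25 phosphatases remove its inhibitory phosphates. Condensins then compact the chromosomes, kinesins build the spindle, and kinetochores attach chromosomes to it under the watch of the spindle checkpoint. Once all are attached, the anaphase-promoting complex (APC/C) with CDC20 marks cyclin B and securin for destruction, separase cuts cohesin, and the cell divides. Most of these genes are transcribed in a wave late in the cycle, through the MuvB complex with B-MYB and FOXM1, and their messages are therefore used as a readout of how many cells of a population are cycling. In myeloid cells they are high in dividing progenitors and promyelocytes and low in mature neutrophils.

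Each probe set was deposited as log2 expression around its own centre, so the values below are differences and give no level. With 3 arrays per group, the number of arrays limits the precision. The member genes were lowest in the R-2HG arrays. Their median was 0.04, 0.08 and 0.14 in the 3 IDH1mut arrays, -0.22, -0.23 and -0.15 in the 3 R-2HG arrays, -0.10, 0.13 and -0.01 in the 3 IDH1wt arrays, and -0.07, 0.17 and 0.10 in the 3 empty vector arrays. All 3 R-2HG arrays thus lay below all 9 others, and the other 3 groups overlapped. In 20 of the 47 genes (42.6%) every R-2HG array lay below every other array, against 13.6% of all genes. In a bulk sample, fewer dividing cells and less of these messages in each cell cannot be told apart.

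**Figure D1:**
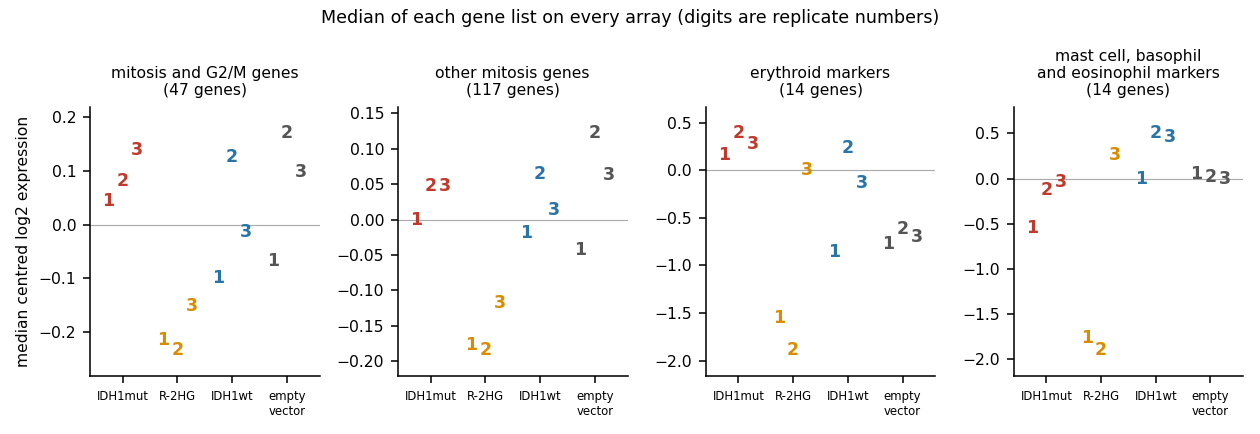
Median centred log2 expression (y axis) of 4 gene lists on each of the 12 arrays (x axis, by group), with digits giving the replicate number. For the 47 mitosis and G2/M genes all 3 R-2HG arrays lie below the other 9, whereas for the erythroid and the mast cell, basophil and eosinophil markers R-2HG replicates 1 and 2 lie far below replicate 3.

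Arrays within groups were not alike. R-2HG replicates 1 and 2 stood apart from replicate 3 in markers of other blood cells. The median of 14 erythroid markers was -1.55 and -1.89 in R-2HG replicates 1 and 2 and 0.00 in replicate 3, against -0.77, -0.62 and -0.70 in empty vector arrays. For 14 markers of mast cells, basophils and eosinophils the median was -1.77, -1.90 and 0.26 in the 3 R-2HG arrays, against 0.05, 0.02 and 0.00 in empty vector arrays. Against empty vector, 6 of these 14 markers were lower and 1 higher in R-2HG, 4 of 17 B cell markers were lower and 1 higher, and 5 of 15 dendritic cell markers were lower. Among the rest, 2 of 14 erythroid, 2 of 15 T and NK cell and 2 of 10 megakaryocyte markers were higher. Lower were 4 T and NK cell and 3 of 13 monocyte and macrophage markers. In this comparison 24.3% of all genes were lower and 16.5% higher. Several marker shares were near these, such as 14.3% of erythroid markers higher and 23.1% of monocyte and macrophage markers lower. Of the maturation markers, 10 of 16 late neutrophil genes were higher. All 9 genes of a list of primary granule and progenitor genes were lower (Mpo, Elane, Prtn3, Ctsg, Ms4a3, Cebpa, Myb, Kit and Cd34). The part of these cell types in the results was not tested, and centred values give no level that could show a marker to be absent. For the 47 mitosis genes, the median of the difference between replicate 3 and the mean of replicates 1 and 2 was 0.07, against 0.00 for all genes, and replicate 3 was the highest of the 3 arrays in 29. In empty vector, replicate 1 was the lowest of its group for 43 of the 47 mitosis genes (91.5%, against 38.7% of all genes). Its B cell marker median was 1.04, against 0.00 in both other arrays. In IDH1wt, replicate 1 was the lowest for 38 of 47 (80.9%, against 32.1%), with an erythroid marker median of -0.86, against 0.24 and -0.14 in replicates 2 and 3.

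Treatment with R-2HG was first set against untreated empty vector cells, so both groups carried the same vector. No group dosed without the metabolite is among the samples, so the dosing and the metabolite cannot be told apart. Of the 47 genes 21 were lower and 0 higher in R-2HG, by limma at a Benjamini-Hochberg adjusted p under 0.05 across the 15858 genes, the call that "rose" and "fell" stand for throughout. This was 44.7% lower, where 24.3% of all genes were lower and 16.5% higher, 40.8% in all. The median log2 fold change was -0.30, against 0.00 for all genes, and 41 of 47 estimates lay below 0. The 3 R-2HG arrays lay wholly below the 3 empty vector arrays in 26 genes (29.8% of all genes did so) and wholly above them in 1, Pttg1 (23.7% of all genes). The Pttg1 mean rests on probe sets that disagree. Changes were small. The estimates ran from -0.58 to 0.26, and 0 members passed with a fold change of at least 1.5. With replicate 3 as the only R-2HG array, 2 genes stayed past the threshold (8.09% of all genes were then lower) and the median was -0.21. Without replicate 3, 22 genes were called (25.5% of all genes were then lower).

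**Figure D2:**
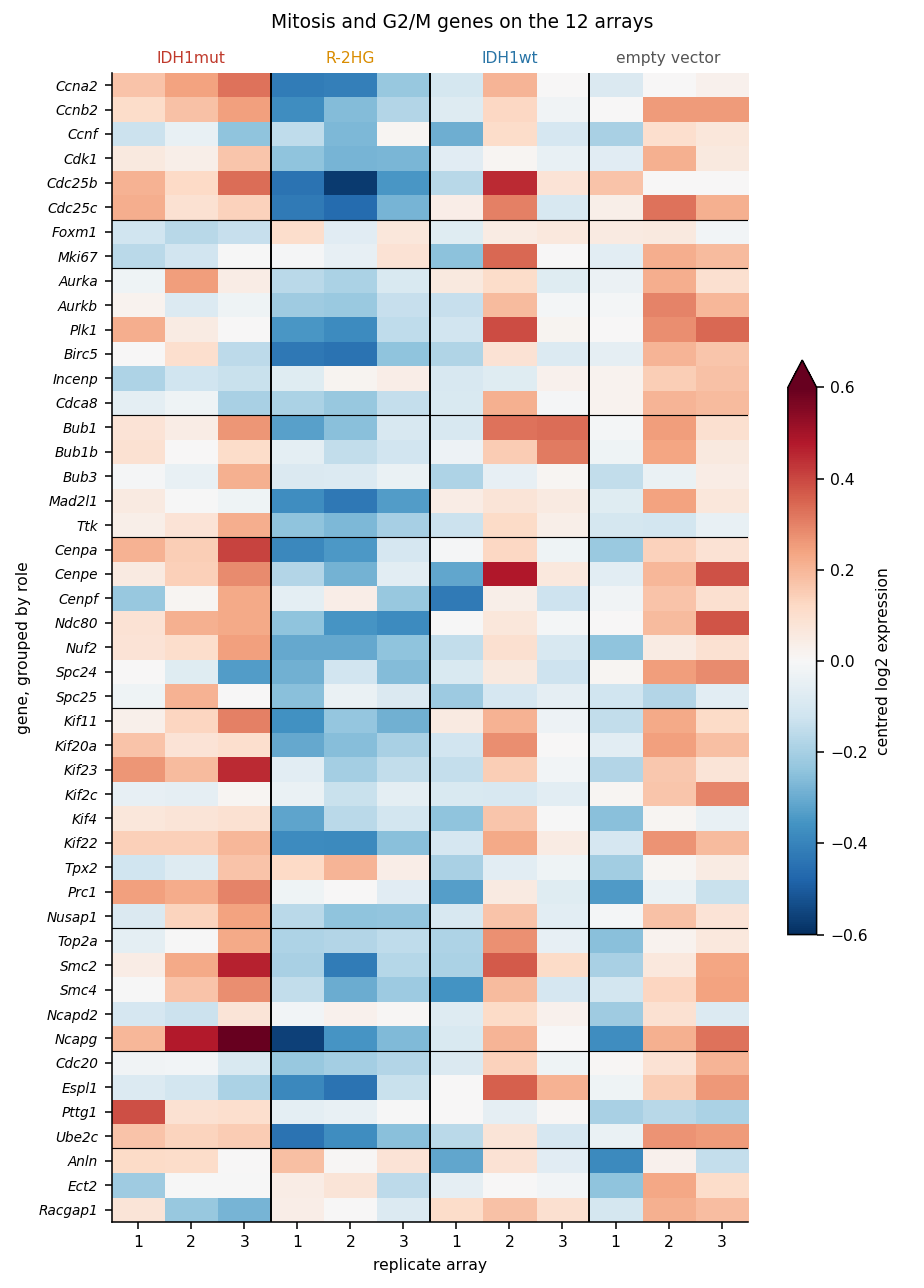
Centred log2 expression (colour) of the 47 genes (rows, by role) on the 12 arrays (columns, by group). The R-2HG columns are low for most cyclin, kinase and kinesin genes, and the first array of the empty vector and IDH1wt groups is lower than the others of its group for most rows.

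Among the cyclins, CDK1 and its phosphatases, 5 of 6 measured genes fell in R-2HG. Cdk1, the kinase that starts mitosis, stood at -0.24, -0.28 and -0.28 in R-2HG arrays, against -0.07, 0.21 and 0.06 in empty vector arrays (log2 fold change -0.33 ± 0.08, SE, adjusted p = 0.00523). Ccna2, or cyclin A2, stood at -0.42, -0.41 and -0.23 in R-2HG arrays, against -0.09, 0.00 and 0.03 in empty vector arrays (-0.33 ± 0.09, adjusted p = 0.0119). In neither gene did the groups overlap. Cdc25c, a phosphatase that activates CDK1, had the largest decrease of the 47 genes, with -0.42, -0.46 and -0.28 in R-2HG arrays, against 0.04, 0.33 and 0.21 in empty vector arrays (-0.58 ± 0.11, adjusted p = 0.00137). Its relative Cdc25b stood at -0.44, -0.57 and -0.35 in R-2HG arrays, against 0.17, 0.00 and 0.00 in empty vector arrays (-0.51 ± 0.13, adjusted p = 0.00938). Both were lower in each R-2HG array than in any empty vector array. Ccnb2, a B-type cyclin, also fell (-0.44 ± 0.09, adjusted p = 0.00274). Ccnf, a cyclin that serves in a ubiquitin ligase, stood at -0.13 ± 0.12 (adjusted p = 0.409), and its arrays overlapped.

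Of the 6 mitotic kinases and members of the chromosomal passenger complex, 4 fell. Plk1, the polo-like kinase of mitotic entry and spindle assembly, stood at -0.35, -0.38 and -0.15 in R-2HG arrays, against 0.00, 0.28 and 0.34 in empty vector arrays (-0.50 ± 0.13, adjusted p = 0.0109). Birc5, or survivin, the passenger subunit that guides the complex to centromeres, stood at -0.43, -0.45 and -0.24 in R-2HG arrays, against -0.05, 0.20 and 0.17 in empty vector arrays (-0.48 ± 0.10, adjusted p = 0.00346). The arrays of the groups were apart in both. Aurkb, the kinase of the complex (-0.35 ± 0.10, adjusted p = 0.0127), and Cdca8, or borealin (-0.33 ± 0.09, adjusted p = 0.0126), fell too. Incenp, the scaffold of the same complex, was at -0.07, 0.01 and 0.04 in R-2HG arrays, against 0.02, 0.15 and 0.18 in empty vector arrays (-0.12 ± 0.07, adjusted p = 0.182), with overlap. Aurka, the kinase of the spindle poles, was at -0.24 ± 0.09 (adjusted p = 0.0531). Its probe sets differed, at -0.44, which passed the threshold, and -0.04, which did not.

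In the spindle checkpoint 2 of 5 genes fell. Mad2l1, which holds back CDC20 until chromosomes are attached, had the smallest p of the 47 genes, with -0.37, -0.43 and -0.34 in R-2HG arrays, against -0.07, 0.24 and 0.07 in empty vector arrays (-0.46 ± 0.08, adjusted p = 0.000931). It was 1 of the 2 genes still past the threshold with replicate 3 as the only R-2HG array (-0.42, adjusted p = 0.0493). Bub1, a checkpoint kinase at kinetochores, stood at -0.33, -0.25 and -0.10 in R-2HG arrays, against -0.01, 0.25 and 0.10 in empty vector arrays (-0.34 ± 0.12, adjusted p = 0.0442). Ttk, the kinase MPS1 that starts checkpoint signalling, stood at -0.24, -0.27 and -0.20 in R-2HG arrays, against -0.11, -0.11 and -0.05 in empty vector arrays (-0.15 ± 0.08, adjusted p = 0.146). The Ttk arrays did not overlap although the difference did not pass. The checkpoint proteins Bub1b (-0.20 ± 0.09, adjusted p = 0.116) and Bub3 (-0.02 ± 0.09, adjusted p = 0.866) did not pass either.

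Of 7 kinetochore genes 2 fell (28.6%, near the 24.3% of all genes), both of the NDC80 complex that holds microtubule ends. Ndc80 stood at -0.24, -0.35 and -0.38 in R-2HG arrays, against 0.00, 0.19 and 0.38 in empty vector arrays (-0.51 ± 0.09, adjusted p = 0.00116), and was the other gene past the threshold with replicate 3 alone (-0.57, adjusted p = 0.0268). Spc24 stood at -0.29, -0.12 and -0.26 in R-2HG arrays, against 0.01, 0.25 and 0.28 in empty vector arrays (-0.41 ± 0.10, adjusted p = 0.00928). The remaining subunits of that complex did not pass, Nuf2 at -0.25 ± 0.10 (adjusted p = 0.0562) and Spc25 at -0.01 ± 0.09 (adjusted p = 0.971). Cenpa, the histone that marks centromeres, stood at -0.39, -0.34 and -0.10 in R-2HG arrays, against -0.22, 0.14 and 0.09 in empty vector arrays (-0.28 ± 0.11, adjusted p = 0.065), with overlap. Cenpe, a kinetochore motor, and Cenpf, a kinetochore protein of G2 and mitosis, also overlapped (adjusted p = 0.121 and 0.349).

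Of 9 kinesin, spindle and microtubule genes 5 fell. Kif22, a chromosome-arm motor, stood at -0.38, -0.38 and -0.25 in R-2HG arrays, against -0.10, 0.27 and 0.19 in empty vector arrays (-0.46 ± 0.10, adjusted p = 0.00492). Kif11, the motor that pushes spindle poles apart, stood at -0.36, -0.23 and -0.29 in R-2HG arrays, against -0.15, 0.23 and 0.11 in empty vector arrays (-0.36 ± 0.11, adjusted p = 0.0185). In both, the R-2HG arrays lay below all empty vector arrays. Kif20a, a cytokinesis motor (-0.37 ± 0.10, adjusted p = 0.0147), Nusap1, a microtubule stabiliser (-0.30 ± 0.10, adjusted p = 0.0311), and Kif2c, a microtubule depolymerase (-0.23 ± 0.07, adjusted p = 0.0264), fell as well. Prc1, which bundles microtubules of the spindle midzone, stood at -0.03, 0.00 and -0.07 in R-2HG arrays, against -0.34, -0.04 and -0.13 in empty vector arrays (0.14 ± 0.10, adjusted p = 0.286). Kif23, the midzone motor (-0.16 ± 0.11, adjusted p = 0.247), Kif4, a chromosome motor (-0.10 ± 0.10, adjusted p = 0.461), and Tpx2, an activator of Aurora A (0.17 ± 0.10, adjusted p = 0.191), did not pass.

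At anaphase onset 3 of 4 genes fell. Ube2c, the ubiquitin-conjugating enzyme of the APC/C, stood at -0.45, -0.38 and -0.25 in R-2HG arrays, against -0.04, 0.27 and 0.26 in empty vector arrays (-0.52 ± 0.10, adjusted p = 0.00142). Espl1, or separase, stood at -0.39, -0.44 and -0.13 in R-2HG arrays, against -0.03, 0.15 and 0.26 in empty vector arrays (-0.45 ± 0.11, adjusted p = 0.00758). Both genes had separate arrays, and Cdc20, the activator of the APC/C, fell by 0.30 ± 0.08 on the log2 scale (adjusted p = 0.00868). Pttg1, or securin, the inhibitor of separase, did not pass (0.15 ± 0.08, adjusted p = 0.161). It stood at -0.06, -0.04 and 0.00 in R-2HG arrays, against -0.20, -0.17 and -0.19 in empty vector arrays. Its probe sets disagreed, with log2 fold changes of 0.90, -0.28 and -0.18, of which only the first passed.

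By limma none of the 5 condensin and topoisomerase genes, the 3 cytokinesis genes or the 2 genes for a transcription factor and a proliferation marker passed. An unadjusted p under 0.05 was found for 2, 1 and 0 of them, where 49.9% of all genes had one. Top2a, the topoisomerase that untangles sister chromosomes, stood at -0.19, -0.17 and -0.15 in R-2HG arrays, against -0.25, 0.02 and 0.06 in empty vector arrays (-0.12 ± 0.12, adjusted p = 0.473). Mki67, which encodes the proliferation marker Ki-67, stood at -0.01, -0.05 and 0.09 in R-2HG arrays, against -0.06, 0.22 and 0.19 in empty vector arrays (-0.11 ± 0.13, adjusted p = 0.534). Both genes overlapped between the groups. Foxm1, the transcription factor of late cell cycle genes, stood at 0.11, -0.07 and 0.07 in R-2HG arrays, against 0.05, 0.06 and -0.02 in empty vector arrays (0.00 ± 0.07, adjusted p = 0.968). Ncapg, a condensin subunit, stood at -0.56, -0.35 and -0.27 in R-2HG arrays, against -0.37, 0.21 and 0.33 in empty vector arrays (-0.45 ± 0.17, adjusted p = 0.0518), where the lowest empty vector array reached into the R-2HG range. The condensin ATPases Smc2 (-0.30 ± 0.15, adjusted p = 0.144) and Smc4 (-0.31 ± 0.13, adjusted p = 0.082) and the subunit Ncapd2 (0.07 ± 0.09, adjusted p = 0.544) did not pass. Of the cytokinesis genes, Anln, an actin-binding ring protein, stood at 0.18, 0.01 and 0.08 in R-2HG arrays, against -0.38, 0.03 and -0.14 in empty vector arrays (0.26 ± 0.12, adjusted p = 0.0969). Racgap1, a subunit of the midzone complex centralspindlin, stood at 0.04, 0.00 and -0.08 in R-2HG arrays, against -0.11, 0.21 and 0.18 in empty vector arrays (-0.11 ± 0.11, adjusted p = 0.43). Ect2, the exchange factor that activates RhoA at the cleavage plane, was at -0.05 ± 0.12 (adjusted p = 0.773), and the arrays of all 3 cytokinesis genes overlapped.

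**Figure D3:**
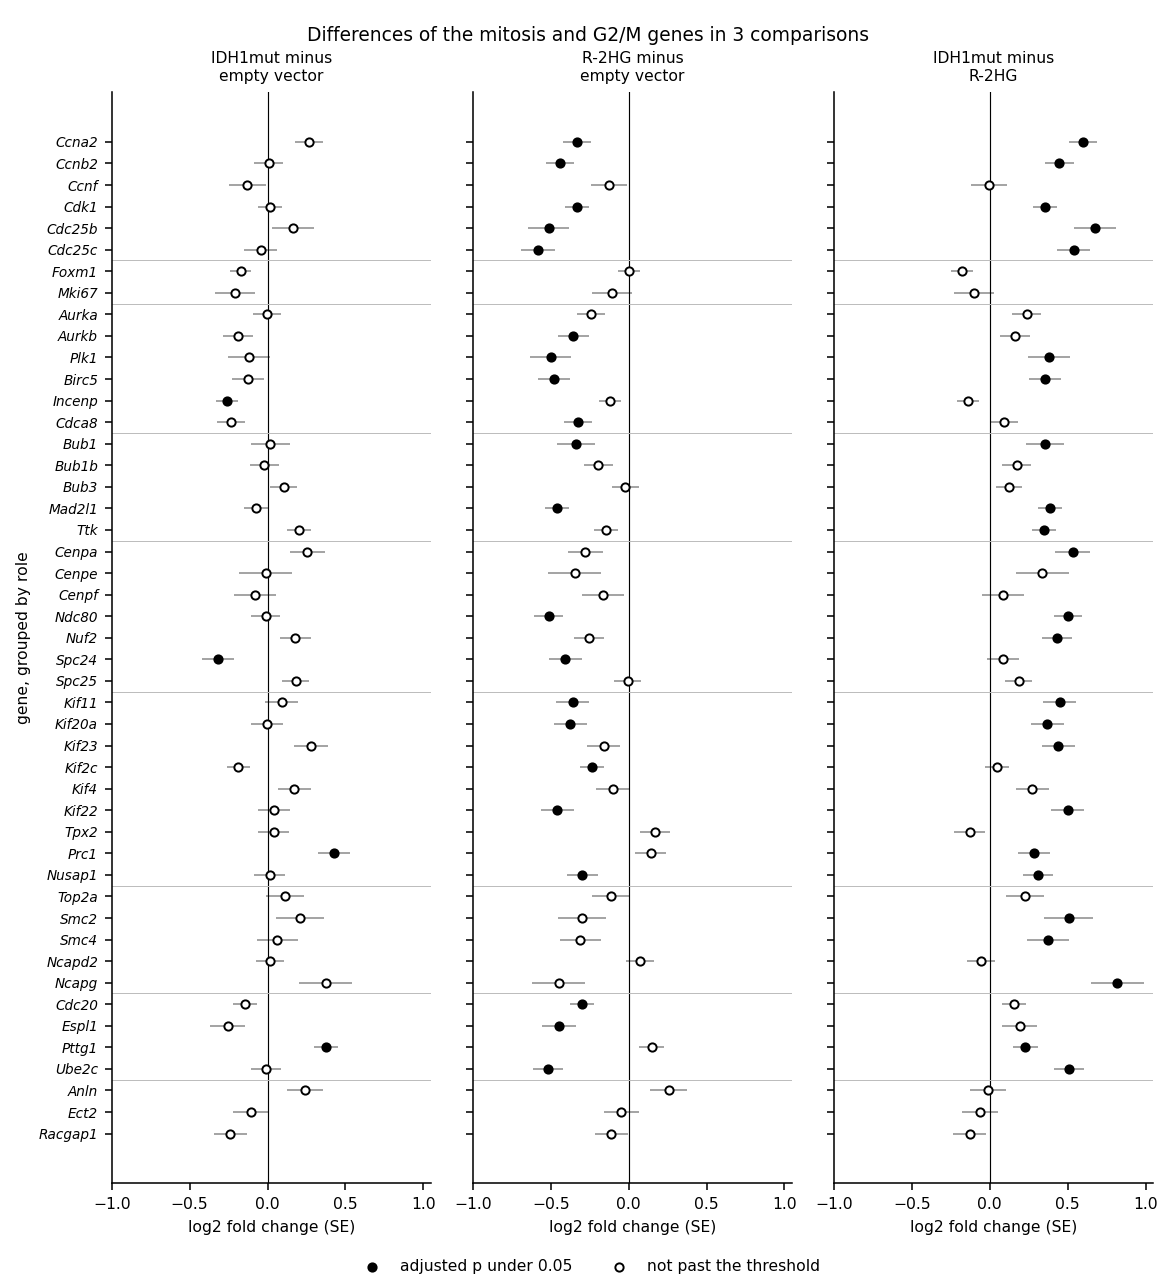
Log2 fold change with SE (x axis) of each of the 47 genes (y axis, by role) in 3 comparisons, with genes past the adjusted p threshold of 0.05 marked. Filled symbols stand left of 0 for 21 genes in R-2HG minus empty vector, right of 0 for 24 in IDH1mut minus R-2HG, and on either side for 4 in IDH1mut minus empty vector.

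Promoters of these genes are known for a pair of elements, the cell cycle genes homology region (CHR), read by MuvB complexes, and the CCAAT box, read by NF-Y. RefSeq promoter sequences (GRCm38.p6, 250 bases before to 50 after the start) were matched by symbol for 38 of the 47 genes, with the first entry used for 3 genes that had several. The CHR letters TTTGAA or TTTAAA, on either strand, stood in 32 of 38 (84.2%), against 27.8% of 27025 promoters, and TTTGAA alone in 30 (78.9%, against 18.1%). At least 1 CCAAT, on either strand, stood in 30 (78.9%, against 37.9%) and 2 or more in 19 (50%, against 12.2%). CHR letters together with 2 or more CCAAT were found in 18 (47.4%, against 3.25%). TTTGAA stood in 11 of 16 promoters (68.8%) of genes that fell and in 19 of 22 (86.4%) of genes that did not pass. A match is a description of letters and not a binding site. Below are the 120 bases before the start of Cdk1 (chr10:69352913-69353032, minus strand), Ube2c (chr2:164769809-164769928, plus strand) and Kif22 (chr7:127042421-127042540, minus strand), which fell, and of Top2a (chr11:99024190-99024309, minus strand) and Mki67 (chr7:135716380-135716499, minus strand), which did not pass, shown so that their elements can be compared. They are written 5′ to 3′ on the gene's strand, with capitals for CHR letters (TTTGAA, reverse TTCAAA) and CCAAT boxes (reverse ATTGG).
Cdk1: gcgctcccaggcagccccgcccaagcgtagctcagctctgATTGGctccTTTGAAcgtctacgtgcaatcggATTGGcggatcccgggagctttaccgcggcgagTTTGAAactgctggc
Ube2c: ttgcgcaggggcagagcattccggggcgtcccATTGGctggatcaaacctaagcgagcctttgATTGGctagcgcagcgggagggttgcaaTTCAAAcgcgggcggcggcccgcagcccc
Kif22: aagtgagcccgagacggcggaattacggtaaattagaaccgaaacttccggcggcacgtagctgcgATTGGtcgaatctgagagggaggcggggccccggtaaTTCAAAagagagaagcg
Top2a: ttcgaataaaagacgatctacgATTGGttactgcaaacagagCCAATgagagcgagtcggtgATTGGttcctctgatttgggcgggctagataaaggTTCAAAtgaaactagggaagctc
Mki67: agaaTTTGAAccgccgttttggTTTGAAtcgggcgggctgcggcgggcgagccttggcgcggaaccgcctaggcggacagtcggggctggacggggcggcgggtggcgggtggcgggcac
Cdk1 and Mki67 each show 2 CHR matches and the others 1. Top2a shows 3 CCAAT boxes, Cdk1 and Ube2c 2, Kif22 1, and Mki67 0 within these bases. Over the whole stretch searched, Top2a and Ube2c had 6 CCAAT boxes, Cdk1 and Mki67 3, and Kif22 2. There Ube2c had 1 TTTGAA, and Cdk1, Kif22, Top2a and Mki67 had 2 each.

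Mutant IDH1 was then set against the empty vector, to ask whether the oncoprotein gives the same picture. Few of these genes differed. Of the 47 genes 2 were higher and 2 lower in IDH1mut, where 10.5% of all genes were higher and 12.1% lower. Their share of calls, 8.51%, was below the 22.6% of all genes, and the median log2 fold change was 0.01, against -0.05 for all genes. The IDH1mut arrays lay wholly above the empty vector arrays in 8 genes (17.5% of all genes) and wholly below them in 6 (23.7% of all genes). Prc1, the midzone bundler, stood at 0.25, 0.22 and 0.30 in IDH1mut arrays, against -0.34, -0.04 and -0.13 in empty vector arrays (0.43 ± 0.10, adjusted p = 0.01). Pttg1, or securin, stood at 0.39, 0.09 and 0.10 in IDH1mut arrays, against -0.20, -0.17 and -0.19 in empty vector arrays (0.38 ± 0.08, adjusted p = 0.00571). Both rose without overlap, with Pttg1 highest in replicate 1. Incenp stood at -0.18, -0.12 and -0.13 in IDH1mut arrays, against 0.02, 0.15 and 0.18 in empty vector arrays (-0.26 ± 0.07, adjusted p = 0.0175), and Spc24 at 0.00, -0.07 and -0.33, against 0.01, 0.25 and 0.28 (-0.32 ± 0.10, adjusted p = 0.0463). Both fell without overlap, and Spc24 missed the threshold in 12 other settings.

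Several genes that fell under R-2HG had estimates close to 0 in IDH1mut, without a test of likeness. Cdk1 stood at 0.06, 0.03 and 0.17 in IDH1mut arrays (0.02 ± 0.08 against empty vector, adjusted p = 0.889), Ube2c at 0.17, 0.13 and 0.15 (-0.01 ± 0.10, adjusted p = 0.955), and Ndc80 at 0.09, 0.21 and 0.23 (-0.01 ± 0.09, adjusted p = 0.941). Ccna2 was higher in each IDH1mut array, at 0.17, 0.24 and 0.32, than in any empty vector array, and did not pass (0.26 ± 0.09, adjusted p = 0.0534). In the IDH1mut arrays the proliferation marker Mki67 was at -0.16, -0.11 and 0.00 (-0.21 ± 0.13, adjusted p = 0.282) and Foxm1 at -0.12, -0.17 and -0.14 (-0.17 ± 0.07, adjusted p = 0.0966). Espl1 stood at -0.08, -0.11 and -0.19 in IDH1mut arrays, below all empty vector arrays, and did not pass (-0.26 ± 0.11, adjusted p = 0.123). In the list of kinases and passenger genes all 6 estimates lay below 0 (median log2 fold change -0.16), and only Incenp was called. Of the other role lists, 0 of 6 cyclin and CDK1 genes and 0 of 5 checkpoint genes passed by limma in IDH1mut against empty vector. Nor did any of the 5 condensin and topoisomerase genes or the 3 cytokinesis genes. In each of these lists 1 gene had an unadjusted p under 0.05, as did 35% of all genes. Of the maturation markers in this comparison, 12 of 16 late neutrophil genes were higher in IDH1mut, against 10.5% of all genes. Of the 9 primary granule and progenitor genes 8 were lower, against 12.1%.

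Mutant IDH1 was set directly against R-2HG, the only comparison that tests whether those exposures differ. It uses the same R-2HG arrays as the comparison above, so its values are not a repeat of it. Of the 47 genes 24 were higher and 0 lower in IDH1mut, or 51.1%, where 20.3% of all genes were higher and 15.8% lower, 36% in all. The median log2 fold change was 0.29, against 0.00 for all genes, and the IDH1mut arrays lay wholly above the R-2HG arrays in 32 genes (25% of all genes) and wholly below them in 2 (22.9% of all genes). With replicate 3 as the only R-2HG array 0 genes passed by limma (1.43% of all genes were then higher), 16 had an unadjusted p under 0.05, and the median was 0.23. Erythroid markers moved with this contrast, 12 of 14 being higher in IDH1mut, with array medians of 0.16, 0.39 and 0.28 in IDH1mut and -1.55, -1.89 and 0.00 in R-2HG, and 9 of 17 B cell markers were also higher. Their part in the result was not tested.

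Ncapg had the largest difference of the 47 genes, with 0.20, 0.48 and 0.61 in IDH1mut arrays, against -0.56, -0.35 and -0.27 in R-2HG arrays (0.82 ± 0.17, adjusted p = 0.00464), and Smc2 was at 0.04, 0.23 and 0.46, against -0.19, -0.42 and -0.17 (0.51 ± 0.15, adjusted p = 0.0255). Of 5 condensin and topoisomerase genes 3 were higher, the third being Smc4 (0.37 ± 0.13, adjusted p = 0.0464). Between R-2HG and empty vector 0 of 5 had passed as genes, with 4 of 5 estimates below 0. There a single probe set each of Ncapg (-0.57), Smc2 (-0.73) and Smc4 (-0.56) was lower past the threshold, and their other probe sets did not pass. Of the cyclin and CDK1 genes 5 of 6 were higher. Cdc25b stood at 0.21, 0.12 and 0.33 in IDH1mut arrays, against -0.44, -0.57 and -0.35 in R-2HG arrays (0.68 ± 0.13, adjusted p = 0.00377). Ccna2 had the smallest p of the 47 genes (0.60 ± 0.09, adjusted p = 0.00129). Cdc25c, at 0.22, 0.09 and 0.14 in IDH1mut arrays, was 0.54 ± 0.11 higher (adjusted p = 0.00396). Cdk1 was 0.35 ± 0.08 higher (adjusted p = 0.00603).

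Of the kinetochore genes 3 of 7 were higher in IDH1mut than in R-2HG. Cenpa stood at 0.21, 0.15 and 0.41 in IDH1mut arrays, against -0.39, -0.34 and -0.10 in R-2HG arrays (0.53 ± 0.11, adjusted p = 0.00505). Ndc80 was 0.50 ± 0.09 higher (adjusted p = 0.00277) and Nuf2 0.43 ± 0.10 higher (adjusted p = 0.00702). Among checkpoint genes 3 of 5 passed, namely Mad2l1 (0.39 ± 0.08, adjusted p = 0.00438), Ttk (0.35 ± 0.08, adjusted p = 0.00646) and Bub1 (0.35 ± 0.12, adjusted p = 0.0397). Among kinesin, spindle and microtubule genes 6 of 9 passed, with Kif22 at 0.50 ± 0.10 (adjusted p = 0.00497), Kif11 at 0.45 ± 0.11 (adjusted p = 0.00841) and Prc1 at 0.28 ± 0.10 (adjusted p = 0.0452). Of the kinases and passenger genes 2 of 6 passed, Plk1 (0.38 ± 0.13, adjusted p = 0.0421) and Birc5 (0.35 ± 0.10, adjusted p = 0.0205). At anaphase onset 2 of 4 passed, Ube2c (0.51 ± 0.10, adjusted p = 0.00319) and Pttg1 (0.23 ± 0.08, adjusted p = 0.0437), while none of the 3 cytokinesis genes nor Mki67 and Foxm1 did. Plk1 and Prc1 lost this call in 10 other settings each, and Pttg1 in 14.

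**Figure D4:**
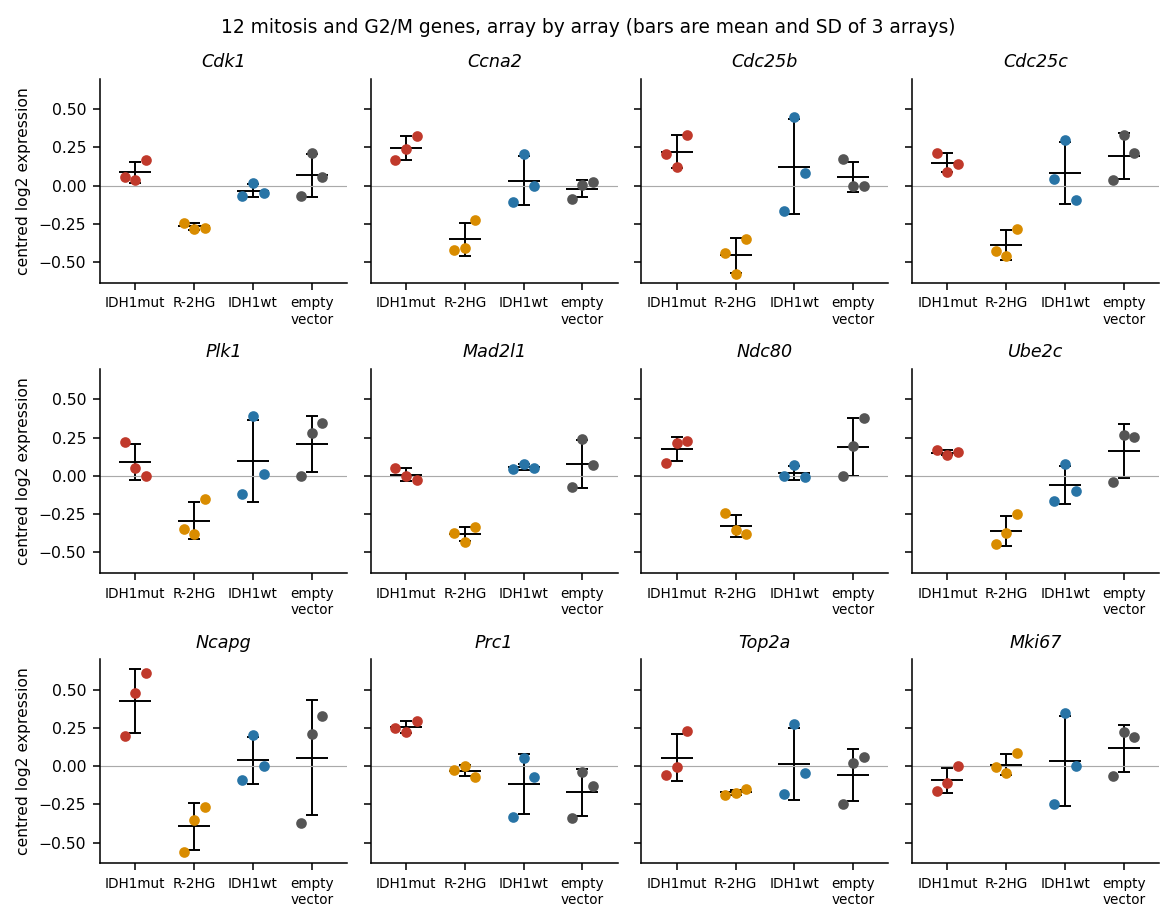
Centred log2 expression (y axis) of 12 genes on each array (points), by group (x axis), with the mean and SD of 3 arrays. Cdk1, Cdc25c, Mad2l1 and Ube2c are low in all 3 R-2HG arrays, Prc1 is high in the IDH1mut arrays, and Top2a and Mki67 overlap between groups.

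Over these 3 comparisons, 15 of the 47 genes were lower in R-2HG than in empty vector, higher in IDH1mut than in R-2HG, and without a call between IDH1mut and empty vector. This pattern was held by 31.9% of them, against 9.81% of all genes, in comparisons that share arrays. In 7 further genes (14.9%, against 3.19%) a higher value in IDH1mut than in R-2HG was the only call, and 5 genes (10.6%, against 5.47%) were called only as lower in R-2HG than in empty vector. Spc24 was lower in IDH1mut and in R-2HG than in empty vector (2.13%, against 6.53%). In the mean of its probe sets, which disagree, Incenp was called only as lower in IDH1mut than in empty vector (2.13%, against 1.39%). Both genes that rose in IDH1mut, Prc1 and Pttg1, were also higher in IDH1mut than in R-2HG (4.26%, against 3.95%). The remaining 16 genes passed in none of the 3 (34%, against 42%). By the moderated F test 28 of 47 members differed somewhere among the groups, as did 54.6% of all genes.

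Wild-type IDH1 served as the control for the enzyme itself. None of the 47 genes passed in IDH1wt against empty vector by limma, where 1.35% of all genes did (0.788% higher and 0.561% lower), and 4 of 47 had an unadjusted p under 0.05 (8.51%, against 16.2% of all genes). The median was -0.05, against -0.04 for all genes, and the lowest adjusted p, 0.138, belonged to Kif2c. In IDH1mut against IDH1wt 1 gene passed (15.7% of all genes did, 8.37% higher and 7.29% lower), Prc1, with 0.25, 0.22 and 0.30 in IDH1mut arrays, against -0.33, 0.06 and -0.07 in IDH1wt arrays (0.37 ± 0.10, adjusted p = 0.0276). Racgap1 lay below all IDH1wt arrays, at 0.08, -0.23 and -0.28 in IDH1mut, against 0.11, 0.17 and 0.10 in IDH1wt, and did not pass (-0.27 ± 0.11, adjusted p = 0.112). In R-2HG against IDH1wt 19 genes were lower and 0 higher, or 40.4%, where 23% of all genes were lower and 21.4% higher, 44.4% in all, with a median of -0.22, against 0.02 for all genes. Cdc25b (-0.58 ± 0.13, adjusted p = 0.00489), Espl1 (-0.51 ± 0.11, adjusted p = 0.00375), Cdc25c (-0.47 ± 0.11, adjusted p = 0.0046) and Mad2l1 (-0.44 ± 0.08, adjusted p = 0.00131) had the largest such decreases. This count moved with single arrays, with 7 genes without R-2HG replicate 1, 8 without R-2HG replicate 2, 7 without IDH1wt replicate 2, 10 without IDH1wt replicate 3, and 0 by limma with R-2HG replicate 3 alone (6.47% of all genes were then lower), where 5 had an unadjusted p under 0.05.

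Many of these genes were read by several probe sets, which did not always move together. There were 32 such genes among the 47. Of the 102 single probe sets 42 were lower (41.2%, against 23.8% of all probe sets) and 6 higher (5.88%, against 15.7%) in R-2HG than in empty vector. In IDH1mut against R-2HG 42 were higher (41.2%, against 20.5%) and 5 lower (4.9%, against 13.5%). Tpx2 was split in R-2HG against empty vector, with fold changes on the log2 scale of -0.37, -0.15, 0.57 and 0.62, of which the first was lower and the last 2 higher past the threshold. Kif2c had -0.69 and -0.64, both past the threshold, beside 0.20 and 0.19, and Ttk had -0.57 (adjusted p = 0.00223) beside 0.28. Pttg1 had 0.90 (adjusted p = 7.3e-05) at 1 probe set and -0.28 and -0.18 at the others, and Foxm1 had 0.27 (adjusted p = 0.0182), -0.06 and -0.19. Bub3, which did not move as a gene, had 1 of 5 probe sets at -0.48 (adjusted p = 0.00168). Incenp had 1 of 4 probe sets lower past the threshold against empty vector in every other group. It stood at -0.70 in IDH1mut, -0.51 in R-2HG and -0.63 in IDH1wt (adjusted p = 0.00176, 0.00687 and 0.0233). Its other probe sets stood at -0.10, -0.32 and 0.08 in IDH1mut, of which only -0.32 passed. For these genes the mean over probe sets rests on signals that disagree, and which probe sets read the protein-coding message was not tested. Probe sets whose names end in x or s can bind other transcripts, and 20 of the 102 are of these kinds.

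**Figure D5:**
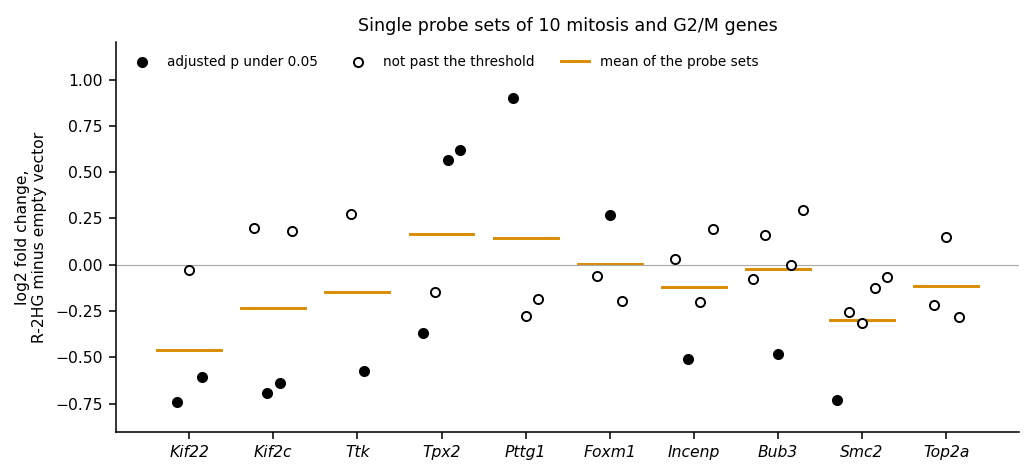
Log2 fold change of R-2HG minus empty vector (y axis) for each single probe set (points, filled where past the threshold) of 10 genes (x axis), with a line at the mean. Kif22 and Smc2 have all their probe sets below 0, and each of the other genes has probe sets on both sides of 0.

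Mitosis genes outside the list were counted in the same way. Of 118 others, sorted into 7 lists by function, 117 were measured. In R-2HG against empty vector 51 were lower (43.6%, against 24.3% of all genes) and 5 higher (4.27%, against 16.5%), with a median of -0.20. The lower genes included 12 of 27 of the inner kinetochore and KNL1-MIS12 list and 11 of 24 kinesins and spindle proteins. Also lower were 10 of 19 mitotic entry and exit genes, 9 of 15 APC/C genes and 5 of 14 cohesin genes. The rest were 3 of 14 MuvB, DREAM and B-Myb genes and 1 of 4 condensin subunits. The shares of the MuvB, DREAM and B-Myb list (21.4%) and of the condensin list (25%) were near that of all genes. Knl1, the kinetochore platform for checkpoint proteins, fell most (-1.02 ± 0.20, adjusted p = 0.00196), followed by the centromere protein gene Cenpw (-0.86 ± 0.12, adjusted p = 0.00024), the APC/C subunit Anapc10 (-0.83 ± 0.09, adjusted p = 7.43e-05) and Haus1 of the augmin complex, which branches spindle microtubules (-0.70 ± 0.09, adjusted p = 0.000208). The largest increases were those of Lin52, a MuvB subunit (0.49 ± 0.12, adjusted p = 0.0063), Pds5a, a cohesin regulator (0.46 ± 0.13, adjusted p = 0.0139), the kinesin Kif15 (0.31 ± 0.11, adjusted p = 0.0453) and the kinetochore gene Zw10 (0.29 ± 0.09, adjusted p = 0.0172).

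In IDH1mut against empty vector 7 of these 117 genes were higher (5.98%, against 10.5% of all genes) and 10 lower (8.55%, against 12.1%), with a median of -0.03. Stag2, a cohesin subunit, rose (0.48 ± 0.07, adjusted p = 0.000644), as did Cenpk (0.43), Zwilch (0.39) and Ska3 (0.38) of the kinetochore. Cenpb, which binds centromeric repeats, fell (-0.47 ± 0.10, adjusted p = 0.0049), as did Haus2 (-0.35), Anapc13 (-0.35) and Mad2l2 (-0.34). In IDH1mut against R-2HG 57 were higher (48.7%, against 20.3% of all genes) and 6 lower (5.13%, against 15.8%), with a median of 0.26. Zwint, which links the checkpoint to KNL1 (0.71 ± 0.12, adjusted p = 0.0019), Sgo1, the protector of centromeric cohesin (0.67 ± 0.08, adjusted p = 0.000611), Plk4, the kinase of centriole duplication (0.57 ± 0.10, adjusted p = 0.00263), and Knl1 (0.57 ± 0.20, adjusted p = 0.0434) had the largest increases. E2f4, a DREAM subunit (-0.54 ± 0.10, adjusted p = 0.00271), Numa1, a spindle pole protein (-0.48 ± 0.10, adjusted p = 0.00481), Kif15 (-0.42) and Pkmyt1, a kinase that inhibits CDK1 (-0.35), were lower in IDH1mut. In the comparisons with IDH1wt, 1 of the 117 was higher (0.855%, against 0.788% of all genes) and 0 lower in IDH1wt than in empty vector. In IDH1mut against IDH1wt 3 were higher (2.56%, against 8.37%) and 1 lower (0.855%, against 7.29%). In R-2HG against IDH1wt 4 were higher (3.42%, against 21.4%) and 49 lower (41.9%, against 23%).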

How the data were processed

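Total RNA of sorted GFP-positive cells was hybridised to 12 Affymetrix mouse arrays, and groups followed titles, source names and construct fields. The submitters' processing notes name RMA, and the deposited values are log2 expression. In the deposited table each probe set is centred, around a reference not given in the sources used here: no probe set has over 7 of 12 values on one side of 0, and 83.6% contain an exact 0.

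Of 32533 probe sets, 28805 had a single symbol in the platform annotation, 757 several and 2971 none. The mean of the single-symbol probe sets was taken per gene, giving 15858 genes with no filter on low values, since centred values carry no level. The model had 1 coefficient per group over 12 arrays and was fitted by lmFit and eBayes of limma 3.58.1 under R 4.3.3, with no trend, giving 8 residual and 3.96 prior degrees of freedom. Two-sided p-values were adjusted by Benjamini-Hochberg across all genes and called under 0.05. Errors are SEs with n = 3 per group. The F test joined the contrasts of IDH1mut, R-2HG and IDH1wt with empty vector. The fit was tested on simulated data with 200 changed genes, far fewer than were called here. Against empty vector it recovered 67.6% (IDH1mut) and 50% (R-2HG) of changes of 0.5 on the log2 scale. For changes of 1 it recovered 97% and 90.9%. Differences of the size seen in these genes can thus be missed.

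The members, the 7 lists of other mitosis genes and the 9 marker lists were chosen with earlier results of these data known. Values per array are given for the 6 members past the threshold with the largest change in each comparison, the 2 members of each role with the smallest F test p, and Mki67, Foxm1, Cdk1, Ccna2, Plk1 and Top2a. Of the other mitosis lists, up to 4 genes in each direction are named. Remaining members have a fold change or count, and probe sets singled out for disagreeing were chosen after their values were seen. Replicate numbers in the labels did not pair samples (correlations of same-numbered deviations from -0.15 to 0.12, and 3 of 12 arrays closest to their own number), so no block was used. Alternatives were array weights, trend, quantile normalization, single probe sets, an SD filter at the 30th percentile, a fold change of at least 1.5, 6-array fits, a block and each array left out. No scan date or batch was given. Promoter letters were searched in Python 3.11.15 and figures drawn with matplotlib 3.10.9.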

Additional observations from a re-analysis of the deposited data

How the results depend on the processing

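The median difference of the 47 genes kept its sign in R-2HG against empty vector and against IDH1wt and in IDH1mut against R-2HG under every alternative run. The limits are 3 arrays per group, unknown centring, replicates of unstated origin and R-2HG replicates 1 and 2, which stood apart in markers of other cells. Without both, calls were lost in the comparisons with R-2HG, among the 47 genes and among all genes. The F test lost calls among the 47 genes too. This leaves 1 array in the group, assumed to vary like the others, and the cause was not tested.

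Demanding a 1.5-fold change left 3 genes in IDH1mut against R-2HG and 0 in IDH1mut or R-2HG against empty vector or IDH1wt. Requiring that all probe sets of a gene pass in one direction gave 1 in IDH1mut against empty vector, 0 in IDH1mut against IDH1wt, 12 in R-2HG against IDH1wt and 13 in IDH1mut against R-2HG. Array weights gave 9 in IDH1mut against empty vector, 2 in IDH1wt against empty vector and 2 in IDH1mut against IDH1wt. Quantile normalization gave 2 in IDH1mut against IDH1wt, 9 in R-2HG against IDH1wt and 18 in the F test. The 6-array fit gave 0 in IDH1mut against IDH1wt. The probe set with the highest SD gave 1 in IDH1wt against empty vector and 3 in IDH1mut against IDH1wt, and medians of -0.31 in R-2HG against IDH1wt and 0.38 in IDH1mut against R-2HG. With the replicate block the counts were 6, 24, 0, 2, 20 and 23 in the 6 comparisons (IDH1mut, R-2HG and IDH1wt against empty vector, IDH1mut and R-2HG against IDH1wt, IDH1mut against R-2HG) and 27 in the F test, as a hint from the data, since the numbers did not pair the samples. For none of these settings was the cause tested beyond the construction of the setting. These counts, and those below with arrays left out, have no share of all genes beside them. A change in calls across all genes thus cannot be told apart from one in these genes alone.

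With each array left out in turn, the counts in the same order ran from 2 to 6, from 15 to 26, from 0 to 0, from 0 to 3, from 7 to 23 and from 15 to 24, and from 15 to 29 in the F test. The medians ran from -0.07 to 0.06, from -0.36 to -0.24, from -0.12 to 0.02, from 0.02 to 0.16, from -0.28 to -0.14 and from 0.27 to 0.30. The lowest counts in IDH1mut against R-2HG, 15 each, came without R-2HG replicate 1 or 2, and in IDH1mut against empty vector, 2 each, without empty vector replicate 2 or 3. Of 3108 values of named genes under alternatives, 2786 kept direction and side of the threshold, 169 lost a call and 59 gained one in the same direction, and 91 changed sign without passing in either setting, in 42 of 156 results, whose reported differences were at most 0.21 in size. In 3 more the sign changed and 1 of the settings passed, each with the probe set of highest SD, for Foxm1 (-0.32, adjusted p = 0.0399) and Pttg1 (0.61, adjusted p = 0.000554) in R-2HG against IDH1wt and Pttg1 (-0.24, adjusted p = 0.0711) in IDH1mut against R-2HG, and the cause was not tested. Of 52 calls for named genes 4 were lost in no setting.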
